A study of Canis lupus familiaris with 18 samples.

Results

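The transcript levels of 84 genes were described in mesenchymal stem cells from the fat of dogs (cAD-MSCs) at the third passage (P3) of culture. These are the 9 samples of the series taken at P3, out of 18 samples in all. The other 9 samples are the cells of the same 9 dogs at the sixth passage (P6). They were used here to ask whether a difference between dogs seen at P3 was present again in later cells of the same dog. They also served to set the order and the spread of the genes beside those at P3. All 9 donors were clinically healthy female dogs of several breeds, most of them a year old or younger, and the cells came from abdominal fat removed at elective spay surgery. None of the cultures was treated: all were grown as adherent cells in basal medium with low glucose and fetal bovine serum. Each culture was derived from a different dog, so the 9 samples are biological replicates, and each gene had 1 PCR well per sample.

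Mesenchymal stem cells (MSCs) are adherent stromal cells that can form bone, cartilage and fat cells in culture. They are recognized by a set of surface antigens, by the absence of leukocyte antigens, and by their ability to differentiate. Fat holds several other cell types as well, among them adipocytes, endothelial cells, pericytes and leukocytes, most of which are lost when only the adherent cells are passaged. The array held genes for surface antigens, extracellular matrix, growth factors, cytokines and factors of the bone, cartilage and fat lineages. No nucleotide sequence of the assays was used here, and genes are named by the array's own symbols, of which 88 of 89 were found in the RefSeq gene table of the dog assembly UU_Cfam_GSD_1.0.

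The measurement was the threshold cycle (CT), the PCR cycle at which the SYBR Green signal of a well crossed a fixed threshold, so that a lower CT stands for more transcript. A CT above 35 cycles, or no crossing at all ("undetermined"), was set to 35, and such a well is called not detected. The level of a gene is given as −ΔCT, which is a reference CT, the geometric mean over the 5 reference genes of the sample, minus the CT of the gene. The scale is log2: a step of 1 doubles the level, a 2-fold difference, and 0 is the level of the reference genes. The value of a well at the limit is an upper bound of the level in that dog. The order of genes rests on the assumption that all assays amplified with the same efficiency and gave the same signal per copy, which was not tested and which amplicon length can alter in a SYBR Green assay.

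The reference genes were close together in the 9 dogs, with a geometric mean CT between 14.1 and 15.7 (SD 0.51). ACTB, the cytoskeletal actin, had the widest range of the 5, from 12.74 to 16.30 cycles. The replicate wells of the reverse transcription control and of the positive PCR control differed within a sample by an SD of 0.076 and 0.045 cycles, and between samples by 0.145 and 0.213 cycles. The well for genomic DNA was undetermined in 9 of 9 samples. Of the 756 wells of the 84 genes, 46 were undetermined and 7 had a CT above the limit.

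All 84 genes were detected in at least 1 dog, and 64 of them in 9 of 9 dogs. A further 10 genes were detected in 8 dogs, 5 genes in 6 or 7 dogs, and 5 genes in 4 dogs or fewer. The mean levels spanned 22.89 units of the log2 scale, from 3.41 for VIM to −19.48 for WNT3A, with a median over the genes of −8.20. In 3 genes the mean lay above the mean of the reference genes. A total of 22 genes had a mean level of −5 or more, 32 lay between −10 and −5, 19 between −15 and −10, and 11 under −15.

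The dogs placed the genes in a similar order. The Spearman rho between the orders of 2 dogs ranged from 0.784 to 0.952 over the 36 pairs of dogs, with a median of 0.873, and rho between the mean orders at P3 and at P6 was 0.972. These are correlations across genes, which are not independent replicates. Neighbours in the order were rarely apart: in 1 of 83 steps from a gene to the next was the gap in the mean larger than the SD of the within-dog difference. That step was the one from VIM to RHOA, of 3.26 units, and the median step was 0.158 units.

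**Figure D1:**
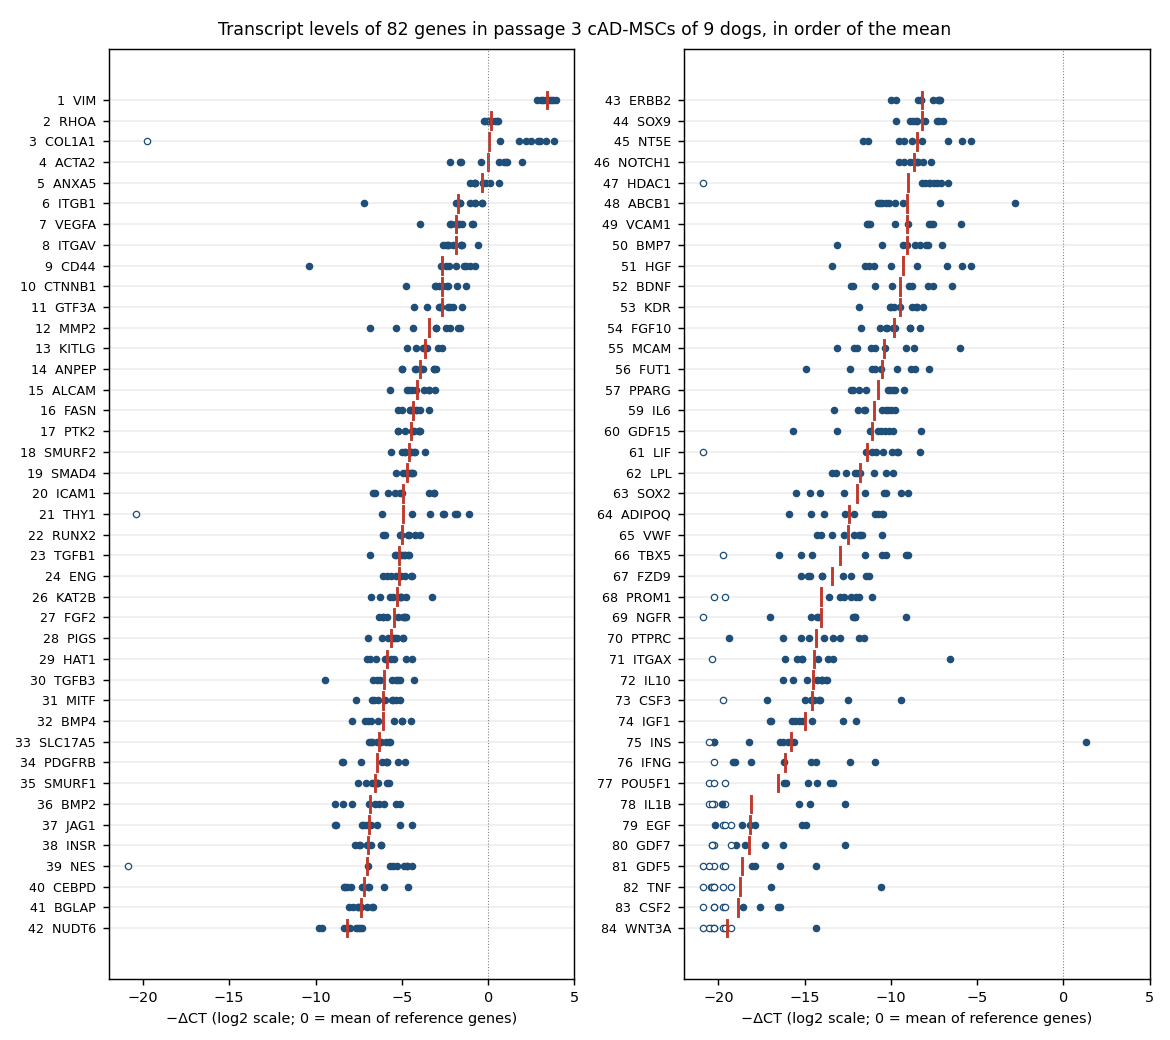
Level of 82 of the 84 genes (−ΔCT, log2 scale, horizontal axis) in the 9 dogs at P3, in order of the mean. Each point is 1 dog, open points are wells that were undetermined or above 35 cycles, red bars are means, and the dotted line is the mean of the reference genes. VIM has the highest mean, with the range of COL1A1 overlapping its own, and WNT3A, detected in 1 dog, the lowest.

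The 12 genes with the highest mean were VIM, RHOA, COL1A1, ACTA2, ANXA5, ITGB1, VEGFA, ITGAV, CD44, CTNNB1, GTF3A and MMP2. VIM, which encodes the intermediate filament protein vimentin of mesenchymal cells, was the most abundant transcript in the mean, with a lowest level of 2.83, a median of 3.39 and a highest of 3.94. Its mean of 3.41 ± 0.35 (SD, n = 9) lay over those of all reference genes, and its median corresponds to 1051% of the reference mean. RHOA, a small GTPase that organizes actin fibers, followed at 0.16 ± 0.29 (SD, n = 9), with values between −0.23 and 0.59. No dog overlapped between VIM and RHOA.

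COL1A1, a chain of the fibrillar collagen of type I, was present at 0.69 to 3.80 in 8 dogs and was undetermined in dog 2/22. The mean over the 9 dogs was 0.05 ± 7.48 (SD), while the median was 2.46, so that COL1A1 was second to VIM by the median. In the P6 sample of dog 2/22 the same assay crossed at 11.92 cycles, within the range of 11.18 to 14.31 of the other 8 dogs. ACTA2, the actin of smooth muscle and of contractile fibroblasts, had a lowest level of −2.23, a median of 0.62 and a highest of 1.98. The level of VIM was above that of ACTA2 in 9 of 9 dogs, by 3.43 units in the mean.

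ANXA5, a phospholipid-binding protein, was at −0.38 ± 0.52 (SD, n = 9). It was followed by the integrin chains ITGB1 and ITGAV, by the angiogenic growth factor VEGFA at −1.88 ± 0.91, and by the hyaluronan receptor CD44. CTNNB1, the β-catenin of cell junctions and of Wnt signaling, was at −2.69 ± 0.97, and GTF3A, a transcription factor for ribosomal 5S RNA, at −2.70 ± 0.84. MMP2, a gelatinase that cleaves matrix proteins, ranged from −6.85 to −1.61 with a median of −3.01. NES, which encodes the intermediate filament nestin, was undetermined in dog 7/22 and lay between −6.99 and −4.39 in the other 8 dogs.

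The surface antigens by which MSCs are recognized covered a wide range of levels. The study's antibody panel at P3 held CD29, CD44, CD90, CD105, CD73, CD271, CD45 and CD34, and 7 of these antigens have a gene on the array. No protein measurement was used here. ITGB1, the CD29 chain, had a lowest level of −7.20, a median of −1.05 and a highest of −0.35. CD44 had a lowest level of −10.40, a median of −1.86 and a highest of −0.78. Each of these genes had 1 low dog far from the other 8, dog 1/22 for ITGB1 and dog 7/22 for CD44.

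THY1, which encodes CD90, was undetermined in dog 9/21, and the other 8 dogs lay between −6.16 and −1.09. Its median was −2.62 against a mean of −4.93 ± 6.00 (SD, n = 9). ENG, the CD105 chain that binds TGF-β family ligands, was tighter, with a lowest level of −6.08, a median of −5.14 and a highest of −4.40. NT5E, the CD73 enzyme that makes adenosine, was lower and more spread, from −11.59 to −5.35 with a median of −8.77. ENG was higher than NT5E in 8 of 9 dogs, by 3.31 ± 0.84 units (SE; exact sign-flip test within dogs, two-sided, adjusted p = 0.0214).

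NGFR, the nerve growth factor receptor CD271 that marks MSCs in human bone marrow, was among the low genes. It was undetermined in dog 7/22 and lay between −16.99 and −9.13 in the other 8 dogs, with a median over all dogs of −14.20. THY1 was higher than NGFR in 8 of 9 dogs by 9.11 ± 2.42 units (SE, exact sign-flip test, adjusted p = 0.0214). The exception was dog 9/21, in which THY1 was undetermined.

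The leukocyte antigens were low in most dogs. PTPRC, the pan-leukocyte antigen CD45, was detected in 9 of 9 dogs, with a lowest level of −19.37, a median of −13.85 and a highest of −11.55. CD44 lay above PTPRC in 9 of 9 dogs, by 11.66 ± 1.33 units (SE, exact sign-flip test, adjusted p = 0.00911), and the gap ranged from 3.45 to 16.64 units. ITGAX, the CD11c integrin chain of myeloid cells, was undetermined in dog 14/21, had a median of −15.16 and reached −6.59 in dog 1/22. The difference between PTPRC and ITGAX was 0.11 ± 1.55 units (SE, adjusted p = 0.952 by the exact sign-flip test), and the differences of single dogs ran from −9.64 to 5.16. In bulk RNA, fewer cells of a type and less RNA per cell cannot be told apart.

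**Figure D2:**
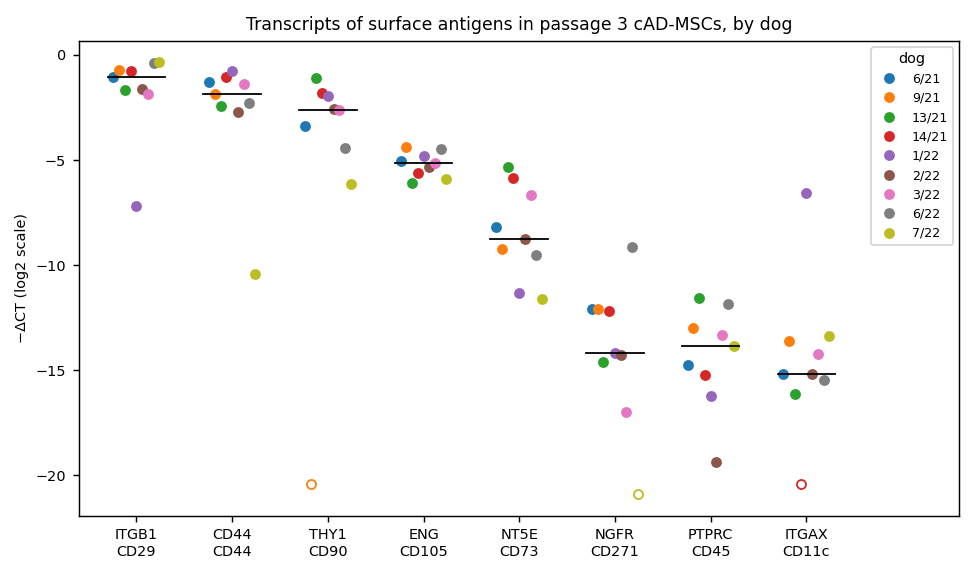
Level (−ΔCT, log2 scale, vertical axis) of the transcripts of 8 surface antigens at P3, with the antigen name under the gene symbol. Each color is 1 dog, open points are undetermined wells and the black bars are medians. CD44 is low in dog 7/22, ITGB1 in dog 1/22 and THY1 in dog 9/21, while ENG spans −6.08 to −4.40.

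Several comparisons among the antigens depended on a dog that stood apart. The dogs left out here were chosen from these same values, so only the difference is given without them, and no test. THY1 and ENG differed by 0.26 ± 2.11 units (SE, exact sign-flip test, adjusted p = 0.973), but without dog 9/21 by 2.30 units. With a limit of 40 cycles the difference was −0.29 and with 32 it was 0.59 units, as THY1 in dog 9/21 is a bound. THY1 lay above NT5E by 3.57 ± 1.92 units (SE, exact sign-flip test, adjusted p = 0.153), and without dog 9/21 by 5.41 units. CD44 lay above ENG by 2.51 ± 0.92 units (SE, exact sign-flip test, adjusted p = 0.0527), and without dog 7/22 by 3.38 units. For the integrin chains ITGB1 and ITGAV, the difference of 0.15 ± 0.85 units (SE, exact sign-flip test, adjusted p = 0.973) was 1.00 without dog 1/22. In THY1 against NT5E, CD44 against ENG and ITGB1 against ITGAV, the dog left out was the only 1 of opposite sign.

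The list of the MSC surface held THY1, ENG, NT5E, CD44, ITGB1, ALCAM, VCAM1, ANPEP, PDGFRB and MCAM. NGFR, at a mean of −14.05, was not on this list. Averaged over the 10 genes of the list, the level was −5.70 ± 0.78 (SD, n = 9 dogs), from −7.36 to −4.93. Averaged over PTPRC and ITGAX it was −14.40 ± 2.01, from −17.81 to −11.41, and over the 3 endothelial and progenitor genes −12.00 ± 1.70, from −15.24 to −10.68. The values of the MSC surface list lay above those of these lists with no overlap between dogs. They also lay above those of the 4 adipocyte genes, at −9.84 ± 0.62 and from −10.75 to −8.85. In that list FASN had a mean of −4.36, while PPARG, LPL and ADIPOQ were at −10.77, −11.80 and −12.43. The 3 genes of smooth muscle and pericytes (ACTA2, MCAM and PDGFRB) were at −5.62 ± 0.81, from −6.84 to −4.45, and overlapped with the MSC surface list. MCAM and PDGFRB are members of both lists, so these averages share values. The 3 genes of fibroblasts and stroma (COL1A1, VIM and MMP2) were higher in the mean, at 0.02 ± 2.63 and from −6.81 to 1.66. Their lowest value, in dog 2/22, includes a COL1A1 well set to the limit. The lowest value of the MSC surface list, in dog 9/21, includes a THY1 well set to the limit. The part of the cell types named here in the levels was not tested.

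The other adhesion molecules and receptors were detected in 9 of 9 dogs. ANPEP, the aminopeptidase CD13, was at −3.92 ± 0.75, and ALCAM, the adhesion molecule CD166, at −4.14 ± 0.82 (SD, n = 9). ICAM1 was higher than VCAM1 in every dog, by 4.17 ± 0.87 units (SE, exact sign-flip test, adjusted p = 0.00911). Both are ligands for leukocyte integrins. The gap between them ran from 0.52 to 8.20 units. PDGFRB, a receptor of pericytes and fibroblasts, was at −6.45 ± 1.32, above the pericyte and endothelial adhesion molecule MCAM at −10.38 ± 2.17 in 8 of 9 dogs (difference 3.93 ± 1.12, SE, exact sign-flip test, adjusted p = 0.0342). Dog 7/22 was the exception, with the highest MCAM value of all, −5.99.

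Defining markers of endothelial cells were low. KDR, a receptor for VEGF, was at −9.46 ± 1.13 and VWF, the von Willebrand factor, at −12.50 ± 1.22 (SD, n = 9). KDR was above VWF in 9 of 9 dogs, by 3.05 ± 0.37 units (SE, exact sign-flip test, adjusted p = 0.00911). PROM1, the progenitor antigen CD133, was detected in 7 of 9 dogs and had a median of −12.72. It was undetermined in dogs 6/21 and 3/22.

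In the TGF-β family the signal carriers were among the steadiest genes. SMAD4, the shared partner of the receptor-regulated SMADs, was at −4.72 ± 0.31 (SD, n = 9), with values between −5.37 and −4.38. The ubiquitin ligases SMURF2 and SMURF1, which degrade SMADs and receptors, were at −4.60 ± 0.56 and −6.54 ± 0.56. SMURF2 was above SMURF1 in 9 of 9 dogs by 1.94 ± 0.13 units (SE, exact sign-flip test, adjusted p = 0.00911), with an SD of 0.378 between dogs that was the lowest of the 42 pairs compared. The gap was at least 1.40 units in each dog.

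Among the ligands of the family, TGFB1 was highest at −5.17 ± 0.68 and TGFB3 followed at −6.04 ± 1.48 (SD, n = 9). The difference of 0.87 ± 0.47 units did not pass the test (SE, exact sign-flip test, adjusted p = 0.0984). The bone-forming ligands BMP4 and BMP2 were at −6.12 ± 1.17 and −6.82 ± 1.32, with a difference of 0.70 ± 0.63 units (SE, exact sign-flip test, adjusted p = 0.375). BMP7 was lower, at −9.09 ± 1.82, and lay under BMP2 in 7 of 9 dogs (adjusted p = 0.0365 by the exact sign-flip test). GDF15, a stress-responsive member, was at −11.10 ± 2.14, and it was above GDF5, a factor of joint cartilage and tendon, in 9 of 9 dogs. GDF5 was detected in 4 dogs and GDF7 in 6.

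The growth factors ranged from a mean of −1.88 for VEGFA to −18.18 for EGF. VEGFA had a lowest level of −3.97, a median of −1.74 and a highest of −0.88. KITLG, the ligand of the KIT receptor, was at −3.66 ± 0.61, and FGF2 at −5.44 ± 0.64 (SD, n = 9). NUDT6, which overlaps FGF2 on the opposite strand in human, was at −8.20 ± 0.93, and whether its assay separates the 2 transcripts is not given in the sources used here. FGF10 was at −9.85 ± 1.04, under FGF2 in every dog by 4.41 ± 0.37 units (SE, exact sign-flip test, adjusted p = 0.00911).

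HGF, the hepatocyte growth factor released by stromal cells, was spread widely between dogs, with a lowest level of −13.41, a median of −10.02 and a highest of −5.34. VEGFA lay above HGF in 9 of 9 dogs, by 2.79 to 11.70 units. BDNF, a neurotrophic factor, had a lowest level of −12.33, a median of −8.95 and a highest of −6.48. IGF1 ran from −17.01 to −12.00 with a median of −15.32, and EGF was detected in 6 dogs. INS, the pancreatic hormone insulin, was between the limit and −15.59 in 8 dogs, with a single high value of 1.32 in dog 14/21.

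Cytokines were the lowest role group on the array, with a median of the gene means of −15.34. IL6 had the highest mean, at −11.00 ± 1.16 (SD, n = 9), detected in 9 of 9 dogs between −13.31 and −9.78. LIF, a cytokine of the IL6 family, lay between −11.47 and −8.31 in 8 dogs and was undetermined in dog 7/22. By the median LIF, at −10.47, was above IL6, at −10.52. The mean difference of LIF from IL6 was −0.36 ± 1.25 units (SE, exact sign-flip test, adjusted p = 0.942), and without dog 7/22, chosen by its LIF value, it was 0.77 units. IL10, an anti-inflammatory cytokine, was low and steady, at −14.51 ± 0.89, and it was under IL6 in 9 of 9 dogs by 3.51 ± 0.55 units (SE, exact sign-flip test, adjusted p = 0.00911). It was the lowest of the 32 genes called steady by the definition given with the spread.

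The inflammatory cytokines IL1B and TNF were detected in 4 and 2 dogs. IL1B reached −12.69 in dog 9/21 and TNF reached −10.60 in dog 3/22. IFNG was detected in 8 dogs, from −19.17 to −10.92 among them. Of the colony-stimulating factors, CSF3 was detected in 8 dogs and CSF2 in 4. CSF3 was higher than CSF2 in 8 dogs and equal, with both wells at the limit, in 1 (mean difference 4.30 ± 0.94, SE, exact sign-flip test, adjusted p = 0.0164). CSF2 was at the limit in 5 dogs, and the size of the difference depended on the limit, with 6.52 units at a limit of 40 cycles and 2.71 at 32.

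Among the factors that set a lineage, RUNX2, the master regulator of bone formation, was the highest, with a lowest level of −6.09, a median of −5.05 and a highest of −3.97. SOX9, its counterpart in cartilage, was at −8.21 ± 0.89, and PPARG, its counterpart in fat, at −10.77 ± 1.17 (SD, n = 9). RUNX2 was above SOX9 by 3.25 ± 0.41 units and above PPARG by 5.80 ± 0.42 units (SE), each in 9 of 9 dogs (exact sign-flip test, adjusted p = 0.00911). No dog overlapped between RUNX2 and PPARG. RUNX2 was also above BGLAP, which encodes the bone matrix protein osteocalcin, by 2.39 ± 0.25 units (SE, exact sign-flip test, adjusted p = 0.00911).

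Genes of mature adipocytes were low but present. FASN, the fatty acid synthase that most dividing cells use, was at −4.36 ± 0.54 (SD, n = 9). LPL, the lipoprotein lipase, was at −11.80 ± 1.22 and ADIPOQ, the adipocyte hormone adiponectin, at −12.43 ± 1.99. ADIPOQ ranged from −15.89 to −10.46 and overlapped with both LPL and PPARG. The differences of PPARG and of LPL from ADIPOQ were 1.66 ± 0.72 and 0.63 ± 0.86 units (SE, exact sign-flip test, adjusted p = 0.0622 and 0.533). PPARG was above ADIPOQ in 8 of 9 dogs, and dog 9/21 was the exception. Without this dog, which was chosen from these same values, the difference was 2.09 units, and no test is given for it.

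TBX5, a factor of heart and forelimb development, was undetermined in dog 2/22 and ran from −16.49 to −9.03 in the other 8 dogs. MITF, a factor of pigment cells, was steady at −6.10 ± 0.81 (SD, n = 9). Both pluripotency factors of the array were low. SOX2 was detected in 9 of 9 dogs, from −15.49 to −8.99, and POU5F1, the gene of OCT4, in 6. SOX2 was above POU5F1 in 8 of 9 dogs, by 4.57 ± 0.75 units (SE, exact sign-flip test, adjusted p = 0.0164).

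CTNNB1 was near the top of the order and WNT3A, a Wnt ligand, at its end. WNT3A was undetermined or above the limit in 8 dogs and crossed at 28.96 cycles in dog 14/21. FZD9, a Wnt receptor, was at −13.39 ± 1.48 (SD, n = 9). The Notch ligand JAG1 was at −6.89 ± 1.48 and above its receptor NOTCH1, at −8.64 ± 0.56, in 7 of 9 dogs (difference 1.75 ± 0.57, SE, exact sign-flip test, adjusted p = 0.0365).

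Of the chromatin enzymes, the acetyltransferases KAT2B and HAT1 were at −5.28 ± 1.00 and −5.84 ± 0.89 (SD, n = 9), with a difference of 0.56 ± 0.40 units in favor of KAT2B (SE, exact sign-flip test, adjusted p = 0.261). The deacetylase HDAC1 was between −8.22 and −6.68 in 8 dogs and undetermined in dog 7/22. The remaining genes of cell signaling and upkeep were detected in 9 of 9 dogs and mostly steady, 8 of the 11 in that group. Among them, PIGS, which acts in the making of lipid anchors of surface proteins, was at −5.62 ± 0.64 (SD, n = 9). ERBB2, a receptor of the EGF receptor family, was at −8.20 ± 1.05, and FUT1 ranged from −14.91 to −7.80. CEBPD, a factor of early fat cell formation, was at −7.18 ± 1.24.

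Across all 42 pairs of genes compared, 27 differed at an adjusted p under 0.05, which is 64.3% of the pairs. The smallest two-sided p that the sign patterns of 9 dogs allow is 0.00390625, which is 0.00911 after adjustment over the pairs. Of these calls, VIM against COL1A1 was lost without any 1 of 8 dogs, BMP2 against BMP7 and JAG1 against NOTCH1 without any 1 of 7, and PDGFRB against MCAM without any 1 of 6. In turn, COL1A1 was above MMP2 by 5.81 units without dog 2/22, and IGF1 above INS by 3.02 units without dog 14/21. In each of these pairs the dog left out was the only 1 of 9 in the other direction. It was chosen from these same values, so no test is given. Since genes of any level were paired, the share called says how far apart their levels were, and not that the genes are related.

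The spread between dogs differed by gene. The SD of −ΔCT over the 9 dogs ranged from 0.29 to 7.48, with a median of 1.32, and each SD includes the error of a single well. A gene is called steady here if it was detected in 9 of 9 dogs with an SD under 1, and variable if the SD was 2 or more, so 1 unit of SD is a 2-fold and 2 units a 4-fold difference. By this rule 32 genes were steady, 28 variable and 24 lay between.

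The 12 genes with the lowest SD were RHOA, SMAD4, VIM, BGLAP, SLC17A5, PTK2, ANXA5, INSR, FASN, NOTCH1, SMURF1 and SMURF2. RHOA had an SD of 0.29, lower than that of ACTB at 0.82 and close to that of the reference gene HPRT1 at 0.29. PTK2, the focal adhesion kinase, had an SD of 0.49 and SLC17A5, a lysosomal sialic acid transporter, of 0.46. The insulin receptor INSR had an SD of 0.52 at a level of −6.98, and NOTCH1 of 0.56 at −8.64. These SDs hold for P3. At P6 the SD was 5.63 for BGLAP, 4.76 for SLC17A5, 4.47 for INSR and 4.17 for NOTCH1. The rest of these 12 genes had an SD at P6 from 0.17 (RHOA) to 0.78 (SMURF2).

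High genes were more often steady than low ones. The definition contributes to this, because a gene with a well at the limit cannot be called steady. Of the 28 variable genes, 11 were detected in 9 of 9 dogs. Of the 22 genes with a mean level of −5 or more, 15 were steady and 4 variable. Of the 32 genes between −10 and −5, 15 were steady and 6 variable. Of the 30 genes under −10, 2 were steady and 18 variable. The Spearman rho between SD and mean was −0.550 over the 84 genes and −0.474 over the 64 genes detected in every dog, as a correlation across genes.

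Many of the variable genes owed their SD to 1 dog. Without the dog farthest from the median of each gene, an alternative chosen after seeing the data, 12 of the 28 variable genes kept an SD of 2 or more. Another 16 fell under 2 and 5 of these under 1. In COL1A1 the SD fell from 7.48 to 0.98, in ITGB1 from 2.12 to 0.59 and in CD44 from 2.97 to 0.71. In HGF, NT5E and SOX2, by contrast, it remained at 2.56, 2.01 and 2.14, with dogs spread along the whole range.

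**Figure D3:**
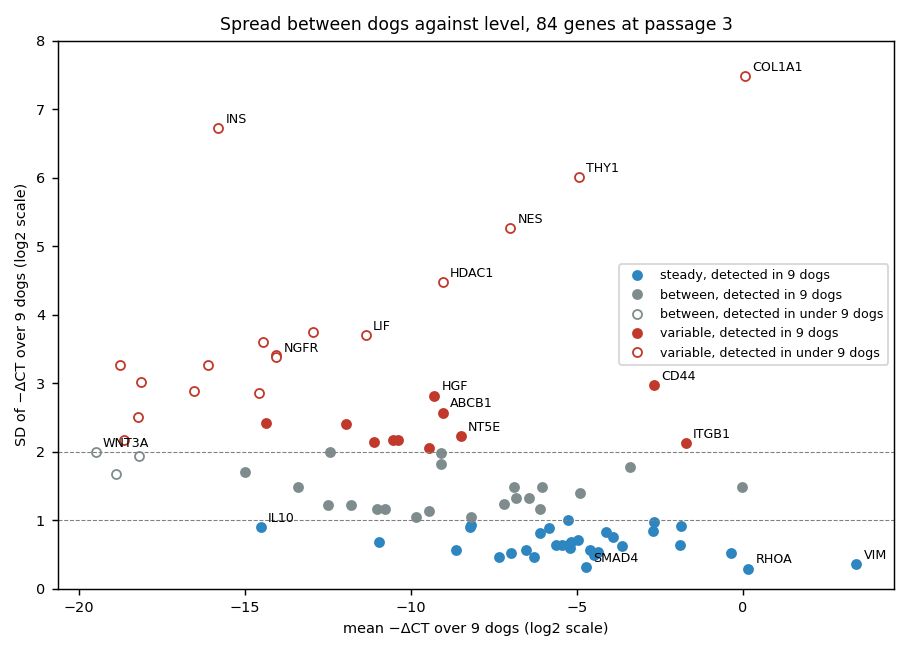
SD over the 9 dogs (vertical axis, log2 scale) against the mean level (horizontal axis, −ΔCT, log2 scale) for the 84 genes at P3. Filled points are genes detected in 9 dogs, open points genes detected in fewer, and dashed lines mark SDs of 1 and 2. COL1A1, THY1, NES and HDAC1 combine a high or middle level with a large SD.

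In 15 genes 1 dog stood apart from the other 8 by Dixon's criterion, on the low side in 11 genes and on the high side in 4. Dog 7/22 accounted for 5 of them, CD44, LIF, HDAC1, NES and TGFB1, while dogs 13/21 and 6/22 had none. LIF, HDAC1 and NES were undetermined in dog 7/22 at P3, and at P6 the same assays crossed in this dog at 22.89, 22.67 and 19.18 cycles. CD44, by contrast, was lowest in dog 7/22 at both passages, with 24.51 cycles at P3 and 22.22 at P6. TGFB3 was lowest in dog 6/21 at both passages, at −9.44 and −8.36.

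The P6 samples also gave values for other dogs that stood apart. ITGB1 in dog 1/22 crossed at 22.91 cycles at P3 and at 15.89 at P6, where the other 8 dogs lay between 14.07 and 16.40. THY1 in dog 9/21 was undetermined at P3 and crossed at 21.82 cycles at P6, the latest of the 9 dogs. INS in dog 14/21 crossed at 13.29 cycles at P3 and at 34.39 at P6. WNT3A, detected at P3 in dog 14/21 alone at 28.96 cycles, was detected in 0 dogs at P6. TNF in dog 3/22 crossed at 26.00 cycles at P3 and at 38.10 at P6, above the limit. ABCB1, a drug efflux pump, was at −2.84 in dog 1/22 at P3, against −10.73 to −7.17 in the other 8 dogs, and at −10.37 in the same dog at P6. Whether single wells, the culture or the dog set these values was not tested.

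To ask which differences between dogs were present in both samples of a dog, the level at P3 was set against that at P6 across the 9 dogs. The paper describes cells taken from the fat of each dog and then passaged, so P3 and P6 share the dog and its isolate. A trait of the dog and a trait of its isolate or culture therefore cannot be told apart here. No level was tested between the passages. Of the 84 genes, 3 passed an exact permutation test of Pearson's r with adjustment over all genes, which is 3.57% of those tested. These were THY1, JAG1 and GDF15. By the unadjusted p, 18 genes were under 0.05, all with a positive r, and r was above 0 in 64 of 84 genes with a median of 0.303.

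For JAG1, r was 0.88 (exact permutation test, adjusted p = 0.0457) and Spearman's rho 0.87 (exact permutation p = 0.00451, adjusted p = 0.153). Dog 9/21 was highest at P3, at −4.41, and at P6, at −4.01. For GDF15, r was 0.91 (exact permutation test, adjusted p = 0.0468) and rho 0.78 (exact permutation p = 0.0172, adjusted p = 0.153), with dog 13/21 lowest at both passages, at −15.67 and −17.72. For THY1, r was 0.72 (exact permutation test, adjusted p = 0.0457) and rho 0.80 (exact permutation p = 0.0138, adjusted p = 0.153). By rank, no gene passed after adjustment, and 19 were under 0.05 before it.

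With fewer dogs most of these calls were lost. Without the 2 dogs farthest from the median at P3, r was 0.62 for JAG1, 0.56 for GDF15 and 0.74 for THY1, and none passed. Leaving out any 1 of the 9 dogs left 0 or 1 call, THY1 without dog 3/22 and GDF15 without dog 7/22. In these fits r stayed between 0.70 and 0.83 for THY1, between 0.81 and 0.92 for JAG1 and between 0.71 and 0.94 for GDF15. With a reference made of the median over genes found in all samples of a passage, JAG1 was not called, at an r of 0.81 (exact permutation test, adjusted p = 0.112). CD44 had the highest r of the 84 genes, 0.97 (exact permutation test, adjusted p = 0.126), with rho 0.67, and without the 2 farthest dogs r was 0.49. NT5E had an r of 0.75 and BDNF of 0.79 (exact permutation test, adjusted p = 0.136 for both).

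**Figure D4:**
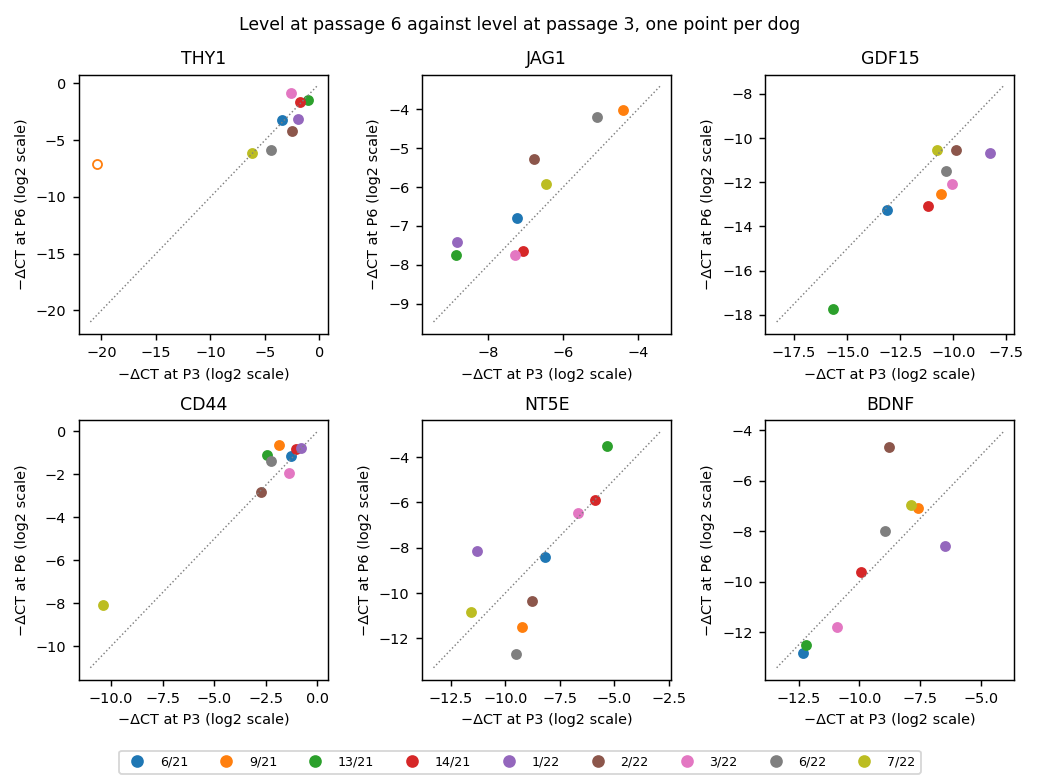
Level at P6 (vertical axis, −ΔCT, log2 scale) against level at P3 (horizontal axis, same scale) for 6 genes, with 1 point per dog and the dotted line at equal levels, and open points were undetermined at P3. JAG1, NT5E and BDNF vary over several dogs, with r of 0.88, 0.75 and 0.79, while CD44 at 0.97 rests on dog 7/22.

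The 28 variable genes had a median r of 0.445 between passages, with 10 of them under 0.05 before adjustment and 2 after it. The 32 steady genes had a median r of 0.284, with 3 under 0.05 before adjustment and 0 after it. Beside these, the whole set of 84 genes had 18 and 3. The rank correlation between the SDs at P3 and at P6 was 0.285 over the genes, and it was 0.652 with a spread measure based on the median absolute deviation, which a single dog does not move.

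The only sample label that divides the P3 samples is the second number of the sample name, 21 in 4 dogs and 22 in 5. The labels do not say what it stands for. The paper also lists the age, breed and tissue mass of each donor. All dogs older than a year are coded 22, so the code and the age of the dogs are in part confounded. With limma, 0 of 84 genes differed between these dogs after adjustment, which is 0%, and the lowest adjusted p was 0.412. At an unadjusted p under 0.05 there were 7 genes, and the exact permutation test per gene gave 7 as well and 0 after adjustment. The smallest p was that of IFNG, at −14.08 ± 2.72 in the 5 dogs coded 22 and −18.66 ± 1.72 (SD) in the 4 coded 21, with a limma adjusted p of 0.412. The next was FUT1, a fucosyltransferase, at −9.17 ± 1.20 and −12.24 ± 1.93 (SD), with the same adjusted p. With robust regression in limma, INS and HGF passed (adjusted p = 0.000129 and 0.0401). The dogs coded 22 differed from those coded 21 by 3.98 units for INS and −4.33 for HGF. Without dog 14/21, in which INS stood apart, the INS difference was 3.87 units. This dog was chosen from these same values, so no test is given. In the other dogs coded 21, INS was undetermined, above the limit or at 34.83 cycles. Their values thus lay at or near the limit, and the INS differences rest on bounds.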

How the data were processed

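The authors measured RNA of cultures from 9 dogs at P3 and P6 with a commercial RT-qPCR array on a Rotor-Gene Q. The deposited CT values, one score per well in cycles, carry no normalization or limit. The authors also deposited a mean ΔCT per passage on the log2 scale, used as a check: the 84 values differed from the means computed here by less than 0.011 cycles. Deposited columns and a table with the authors' own comparison of the passages (fold changes) were not used. Samples were grouped by their passage label, and paired by the dog code in their description.

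CT values were limited at 35 and referred to the reference genes RPL13A, PGK1, HPRT1, B2M and ACTB (geometric mean) in Python 3.11 (numpy, scipy, pandas). Pairs of genes were tested by exact sign-flip tests within dogs, recurrence at P6 by exact permutation over 362880 pairings, and the dog codes by limma 3.58.1 in R 4.3.3, all two-sided with Benjamini-Hochberg adjustment and a threshold of 0.05. The tests were checked on simulated data. Named genes were the 12 highest, those detected in fewer than 9 dogs, the 12 with the lowest SD, those with an SD of 2 or more, those of the tested pairs, the reference genes, those called by a test and those in which a dog stood apart; others are given by role. The members, the gene lists and the tests were chosen with earlier results of these data known. No depth applies: 1 well per gene and sample limits the precision. Other limits, reference genes, spread measures and dogs left out were tried as alternatives. The values of 2 genes are not reported here singly, and they are part of the counts.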

Additional observations from a re-analysis of the deposited data

Results flagged for a closer look

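The values in this paragraph stood apart from the other 8 dogs by Dixon's criterion for 9 samples, which chance alone exceeds in about 1 in 20 groups, and 84 genes, 5 reference genes and the summaries per dog were examined. On the low side, the levels (−ΔCT, log2 scale) were CD44 −10.40, TGFB1 −6.82 and LIF, HDAC1 and NES each −20.89 in dog 7/22, COL1A1 −19.76 in dog 2/22, THY1 −20.42 in dog 9/21 and ITGB1 −7.20 in dog 1/22. KDR was −11.84 in dog 3/22, and TGFB3 and VEGFA were −9.44 and −3.97 in dog 6/21. The values of COL1A1, THY1, LIF, HDAC1 and NES are undetermined wells, set to the limit. On the high side, ABCB1 was −2.84 in dog 1/22, TNF −10.60 in dog 3/22, and INS and WNT3A were 1.32 and −14.35 in dog 14/21. The reference gene PGK1 was high in dog 2/22, at −0.22.

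Among the summaries per dog, dog 7/22 had 5 genes in which it stood apart. Dog 1/22 held the highest value in 23 of the 64 genes detected in every dog, and its median deviation from the median of the dogs was 0.63 units. The reference genes crossed later in this dog than in any other, with a geometric mean CT of 15.7, and their part in its high values was not tested.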

How the results depend on the processing

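The order, the detection, the count of steady genes and the pairs called kept within 1.5 times of their values under every alternative run. The 12 highest genes shared 11 to 12 members with the order under any other limit, the median, the authors' mean or without any 1 dog. With any 1 dog left out, 64 to 68 genes were detected in all dogs, 30 to 34 were steady, 25 to 31 were variable and 24 to 27 pairs were called. The count of variable genes was 15 with the spread based on the median absolute deviation and 12 without the farthest dog of each gene, against 28. Without the dog as a block (no pairing), 28 pairs were called against 27, the added pair being CD44 and ENG. VIM against COL1A1 lost its call without any 1 of 8 dogs. The comparison of dogs coded 22 and 21 gave 2 genes with robust regression and 0 to 1 with a dog left out. Recurrence at P6 called 0 genes by Spearman's rho and 0 without the 2 farthest dogs, 5 with ACTB and B2M left out of the reference, and 0 to 1 with a dog left out, against 3; the cause was not tested. With a reference made of the median over genes found in all samples of a passage, the count was 3 but JAG1 was not among them (r 0.81, exact permutation test, adjusted p = 0.112). Wells at the limit give only bounds, and an error of 1 well cannot be told from a difference between dogs.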

Other observations

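A principal component description of the P3 dogs over the 64 genes detected in every dog was made after the values were seen, and it carries no test. The first component held 33.2% of the variance. HGF, NT5E, CD44, MMP2 and MITF had the largest positive weights, and SOX2, BDNF, MCAM, FUT1 and GDF15 the largest negative ones. At P3 dog 6/21 scored 8.67, dog 13/21 7.16, dog 3/22 4.90 and dog 14/21 4.08, while dogs 2/22, 6/22, 9/21, 1/22 and 7/22 scored −2.01, −3.82, −4.00, −5.57 and −9.43. Scored at P6 with the P3 weights, 9 of 9 dogs kept their sign.

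Pearson's r between the scores at the 2 passages was 0.86 and Spearman's rho 0.80, and r was 0.75 without the 2 dogs farthest from the median. The scores are not evenly spread: a gap of 6.08 of a range of 18.09 divides the dogs, so part of r comes from that division. In all, 12 specifications were looked at, with 64 or 57 genes, values unscaled, in SD units or with the P6 values clipped, and the first or the second component. The value given is that of the plainest one. Over the 6 specifications of the first component r ran from 0.86 to 0.97, and over the 6 of the second from 0.53 to 0.86. With other reference genes or none, r of the first component lay between 0.87 and 0.90, and with a dog left out between 0.80 and 0.91.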
